A study of Homo sapiens with 6 samples.

Results

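The genes described here are 10 components of the canonical Wnt pathway: the co-receptors LRP5 and LRP6, β-catenin (CTNNB1), the scaffold proteins APC, AXIN1 and AXIN2 that act on it, and the transcription factors LEF1, TCF7, TCF7L1 and TCF7L2 that it binds. They were taken by gene symbol from a raw count table of 58735 rows, and all 10 symbols had exactly 1 row. The samples were RD cells, an established human embryonal rhabdomyosarcoma (ERMS) line, a tumor line of skeletal muscle type. One group had received lentivirus carrying a scrambled shRNA (n = 3) and the other lentivirus carrying an shRNA against TAK1, the kinase encoded by MAP3K7 (n = 3). Both groups therefore carried a lentiviral shRNA vector, and poly(A)-enriched mRNA was sequenced. A single TAK1 shRNA was sequenced, so effects of the knockdown and effects particular to that hairpin cannot be told apart. No source used here says that the 3 samples of a group came from separate cultures, so the p-values measure the spread between these samples, which may be technical.

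In the absence of a Wnt signal, β-catenin is held by AXIN and APC in a cytoplasmic destruction complex, phosphorylated by casein kinase 1 and GSK3, ubiquitinated and degraded. Wnt ligands bring a Frizzled receptor together with LRP5 or LRP6, the complex is recruited to the membrane, and β-catenin accumulates and enters the nucleus, where TCF/LEF proteins otherwise repress their targets with Groucho/TLE co-repressors. AXIN2, LEF1 and TCF7 are themselves common targets of this signal, so their mRNA is often read as its output. In skeletal muscle the pathway takes part in the specification of myogenic cells and in regeneration. Because the complex acts on the β-catenin protein, CTNNB1 mRNA does not report how much of that protein is active, and these libraries held mRNA only.

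Libraries held between 28839898 and 34469323 counts. MAP3K7, the targeted gene, measured 77.9, 76.5 and 77.6 counts per 1000000 (CPM, with libraries scaled by the trimmed mean of M-values, TMM) in the scrambled shRNA samples and 30.5, 33.6 and 29.9 CPM in the TAK1 shRNA samples, a fall of 1.30 on the log2 scale (SE 0.062). The myogenic factors MYOD1 and MYOG were present at 263 ± 8.03 and 141 ± 6.07 CPM in scrambled shRNA samples (SD, n = 3), while MYF5 had no count in any library. Of 8 muscle markers, 6 were tested, of which MYOD1 and MYOG were called higher and CHRNA1 lower. This was 50% of those tested, against 23.1% of all tested genes. Summed over 12 markers of epithelial, blood, endothelial and fat cells, the level was 0.551 to 0.762 CPM in scrambled and 0.376 to 0.821 CPM in TAK1 shRNA samples, and 4 of the 12 were at 0 in all libraries. In bulk RNA, fewer cells of a type and less RNA per cell cannot be told apart.

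A gene was called when its adjusted p (edgeR quasi-likelihood test, Benjamini-Hochberg over 15935 tested genes) was below 0.05 and its log2 fold change, TAK1 against scrambled shRNA, was at least 0.25 in size, the thresholds used by the study. All 10 genes passed the filter on low counts. LRP6 was called lower and LRP5 higher, so 2 of the 10 genes were called, against 23.1% of all tested genes, of which 11.8% were higher and 11.3% lower. APC passed the adjusted p but missed the fold threshold. The other 7 genes did not pass the test. The groups did not overlap for 5 of the 10 genes, LRP5, LRP6, CTNNB1, APC and AXIN2, against 43.9% of all tested genes. The median log2 fold change was -0.05 over the 10 genes and 0.018 over all tested genes.

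**Figure D1:**
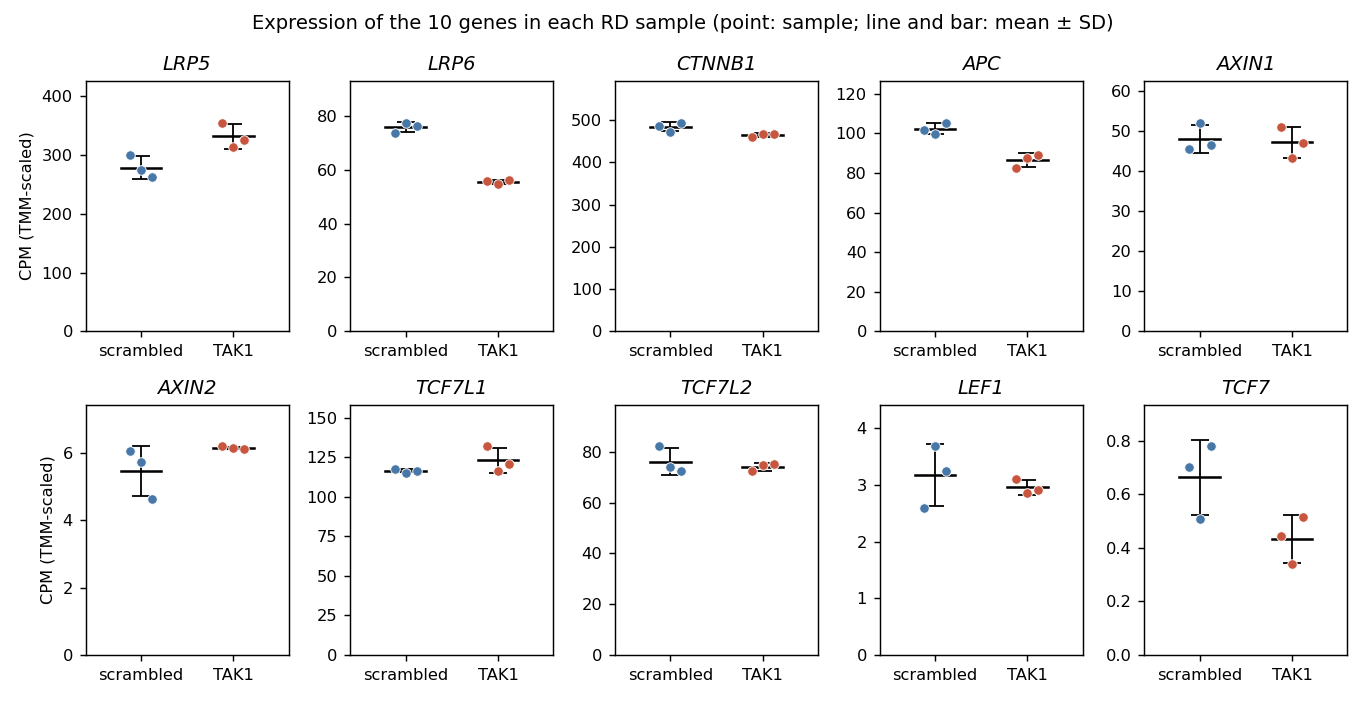
Expression of the 10 genes in CPM in each scrambled shRNA (blue) and TAK1 shRNA (red) sample, with the mean and SD of 3 samples; each panel has its own axis from 0. The 3 TAK1 shRNA samples lie above all scrambled shRNA samples for LRP5 and below them for LRP6 and APC, whereas most other panels overlap.

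LRP5 and LRP6 are single-pass co-receptors that dock AXIN after Wnt binding. LRP6 (chr12:12116025-12267044 of GRCh38, minus strand) measured 73.8, 77.5 and 76.4 CPM in the scrambled shRNA samples and 55.7, 54.7 and 56.0 CPM in the TAK1 shRNA samples. All TAK1 shRNA samples were below all scrambled shRNA samples, and the means were 75.9 ± 1.88 and 55.5 ± 0.711 CPM (SD, n = 3). The log2 fold change was -0.45 (SE 0.054, adjusted p = 3.8e-07 by edgeR). LRP5 (chr11:68312591-68449275, plus strand) measured 299.4, 275.0 and 261.9 CPM with the scrambled shRNA and 355.1, 314.2 and 326.0 CPM with the TAK1 shRNA. All TAK1 shRNA samples were higher, with means of 331.8 ± 21.1 against 278.8 ± 19.0 CPM (SD, n = 3). Its log2 fold change of 0.25 (SE 0.053, adjusted p = 0.000546 by edgeR) lay at the fold threshold. Without scrambled shRNA sample 2, scrambled shRNA sample 3 or TAK1 shRNA sample 1 it was 0.24, 0.21 and 0.20, under that threshold, and adjusted p was at most 0.0121.

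The co-receptors therefore moved in opposite directions, and the count ratio of LRP5 to LRP6 within a library, which library scaling cannot change, was compared. It was 4.06, 3.55 and 3.43 in scrambled shRNA samples and 6.37, 5.75 and 5.82 in TAK1 shRNA samples. The groups did not overlap, and the log2 ratio differed by 0.70. The two-sided exact permutation test gave p = 0.1, the smallest value that 3 against 3 samples allow. LRP5 and LRP6 had each separated the groups, in opposite directions. Non-overlap of their ratio and this p were therefore fixed beforehand and add no separate support. Per kb of annotated exon, LRP5 made up 85.2% to 87.2% of the sum of both co-receptors with the scrambled shRNA and 90.6% to 91.4% with the TAK1 shRNA.

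Base composition moved with this pair. Across 12472 tested genes that averaged 1 CPM or more and had a known transcript sequence, Spearman's rho between the GC content of the longest transcript and the log2 fold change was 0.24, a description across genes that share the 6 libraries. The median log2 fold change went from -0.07 in the 2495 genes lowest in GC (29.2% to 40.5%) to 0.11 in the 2495 highest (58.1% to 76.0%). The longest transcript was 62.9% GC for LRP5, inside the highest set. It was 40.9% for LRP6, inside the set next above the lowest (40.5% to 45.2%, median log2 fold change -0.04). With the GC trend of each library removed, an alternative added after the data were seen, LRP5 was at 0.14 (adjusted p = 0.00416), below the fold threshold, and LRP6 at -0.39 (adjusted p = 2.6e-07). The part of base composition in these differences was not tested further. 

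Promoters of the genes also differed in GC content, a measure separate from the GC content of the longest transcript. RefSeq promoters of GRCh38.p14, 250 bases before to 50 after a start site, were found for 8 of the 10 genes, with 12 start sites, and not for AXIN2 and LRP6. Among the genes with a single such promoter, LRP5 had the highest GC content, 86.7%, and LEF1 the lowest, 47.0%, against a median of 58.7% over 35116 promoters. The 120 bases before each start site are printed 5′ to 3′ on the strand of the gene to show this difference. CpG dinucleotides are in capitals, 23 for LRP5 (chr11:68312471-68312590, plus strand) and 3 for LEF1 (chr4:108166302-108166421, minus strand). The LEF1 window lies inside the annotated gene (chr4:108047545-108168956), so its start site is an internal one. That of LRP5 ends just before its annotated gene (chr11:68312591-68449275).
LRP5: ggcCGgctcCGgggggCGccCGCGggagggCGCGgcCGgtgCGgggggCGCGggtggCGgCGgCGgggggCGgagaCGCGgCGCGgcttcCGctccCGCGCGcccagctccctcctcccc
LEF1: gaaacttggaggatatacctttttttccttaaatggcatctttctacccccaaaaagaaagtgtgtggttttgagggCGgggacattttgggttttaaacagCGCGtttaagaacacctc
The letters CTTTGAA or CTTTGAT, the core bound by TCF/LEF proteins, were searched on both strands of the 300-base windows. They occurred in 0 of the 12 promoters of these genes and in 6.86% of the 35116. Such a window says nothing of sites elsewhere in a gene.

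**Figure D2:**
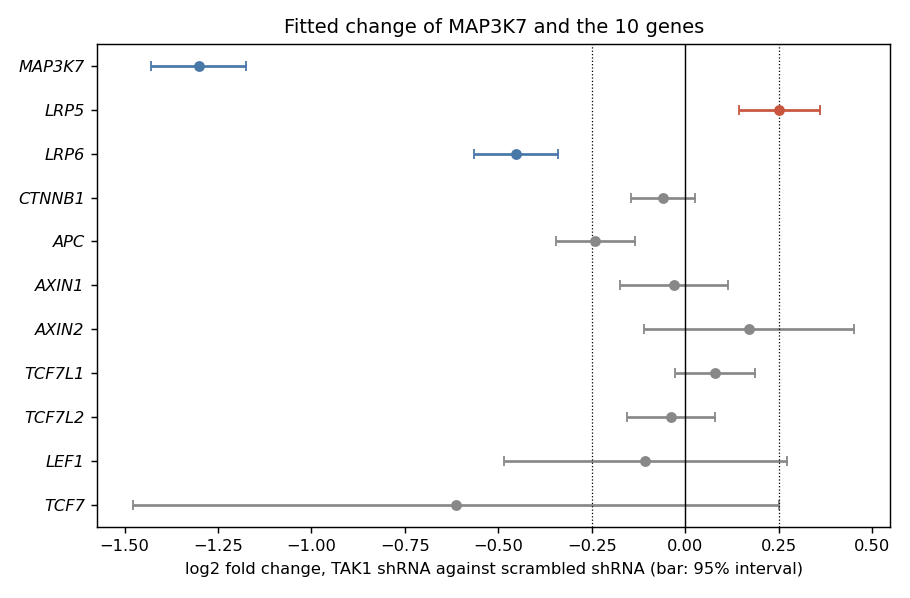
Fitted log2 fold change, TAK1 against scrambled shRNA, of MAP3K7 and the 10 genes with 95% intervals; dotted lines mark the fold threshold of 0.25, blue a call lower, red a call higher and grey no call. MAP3K7 at -1.30 lies apart from the 10 genes, and the intervals widen towards the scarce genes AXIN2, LEF1 and TCF7.

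CTNNB1 encodes β-catenin, which links cadherins to the actin cytoskeleton and co-activates TCF/LEF targets. CTNNB1 (chr3:41194741-41260096, plus strand) measured 486.3, 472.7 and 493.6 CPM with the scrambled shRNA and 460.0, 467.2 and 466.4 CPM with the TAK1 shRNA. The TAK1 shRNA samples were all slightly lower. The difference of -0.06 (SE 0.041, adjusted p = 0.293 by edgeR) did not pass the test, and its 95% interval, -0.15 to 0.026, does not reach the fitted values of LRP6 or LRP5. Among 13476 tested genes averaging 1 CPM or more, the 3 whose log2 CPM ran most like CTNNB1 over the 6 samples were ZNF677 (Pearson's r = 0.985), CEACAM21 (r = 0.981) and PAPOLA (r = 0.981), the last a poly(A) polymerase. These values describe 6 points in 2 groups from the same libraries and carry no test.

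APC and the AXIN proteins are the scaffolds of the destruction complex. APC (chr5:112707518-112846239, plus strand) measured 101.7, 99.9 and 105.4 CPM in scrambled shRNA samples and 82.7, 87.8 and 89.3 CPM in TAK1 shRNA samples. No TAK1 shRNA sample reached a scrambled shRNA sample, and the log2 fold change was -0.24 (SE 0.051, adjusted p = 0.000682 by edgeR), just under the fold threshold. It passed that threshold without scrambled shRNA sample 2 (-0.26), TAK1 shRNA sample 2 (-0.25) or TAK1 shRNA sample 3 (-0.27). The APC transcript has a low GC content, 40.5%, and with the GC trend removed the difference was -0.17 (adjusted p = 0.0017).

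AXIN1, the scaffold that limits assembly of the complex (chr16:287440-352723, minus strand), measured 45.5, 52.0 and 46.6 CPM with the scrambled shRNA and 51.1, 43.3 and 47.0 CPM with the TAK1 shRNA. The groups overlapped throughout, and the difference was -0.03 (SE 0.069, adjusted p = 0.784 by edgeR). AXIN2, its inducible relative and a feedback inhibitor (chr17:65528563-65561648, minus strand), measured 6.05, 5.72 and 4.64 CPM with the scrambled shRNA and 6.19, 6.14 and 6.12 CPM with the TAK1 shRNA. The TAK1 shRNA samples were nearly alike and all higher, by a margin that in the case of scrambled shRNA sample 1 was small. The log2 fold change of 0.17 (SE 0.136, adjusted p = 0.369 by edgeR) did not pass, with a 95% interval of -0.11 to 0.45. Without scrambled shRNA sample 3, the lowest, it was 0.064, and without scrambled shRNA sample 1 it was 0.25. AXIN2 rested on 143 to 180 counts in scrambled and 181 to 217 counts in TAK1 shRNA libraries, and 25.3% of its exonic bases also belong to another annotated gene on the same strand, so its counts are less certain. The ratio of AXIN2 to AXIN1 counts overlapped between the groups (difference of the log2 ratio 0.21, two-sided exact permutation p = 0.3). The genes that ran most like AXIN2 over the 6 samples were AC016727.1 (r = 0.986), NARF (r = 0.986) and GOT2 (r = 0.983), the last a mitochondrial aspartate aminotransferase.

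The TCF/LEF family members bind the same DNA core through a shared HMG box and differ in use, TCF7L1 acting mainly as a repressor and LEF1 mainly as an activator. TCF7L1 (chr2:85133392-85310387, plus strand) measured 117.4, 115.4 and 116.6 CPM with the scrambled shRNA and 131.9, 116.4 and 121.1 CPM with the TAK1 shRNA. TAK1 shRNA samples 1 and 3 stood above all scrambled shRNA samples and sample 2 lay inside their range, and the difference of 0.08 (SE 0.052, adjusted p = 0.261 by edgeR) did not pass. TCF7L2 (chr10:112950247-113167678, plus strand) measured 82.1, 74.0 and 72.4 CPM against 72.3, 74.8 and 75.3 CPM. These groups overlapped, with a log2 difference of -0.04 (SE 0.057, adjusted p = 0.655 by edgeR).

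LEF1 (chr4:108047545-108168956, minus strand) was found at 2.60, 3.68 and 3.24 CPM with the scrambled shRNA and 3.11, 2.86 and 2.91 CPM with the TAK1 shRNA. The spread of the scrambled shRNA samples enclosed all TAK1 shRNA samples, and the log2 fold change was -0.11 (SE 0.184, adjusted p = 0.709 by edgeR). TCF7 (chr5:134114681-134151865, plus strand) was the scarcest of the 10 genes, with 20, 16 and 24 counts in scrambled shRNA libraries, or 0.703, 0.508 and 0.778 CPM, and 13, 12 and 17 counts in TAK1 shRNA libraries, or 0.445, 0.340 and 0.515 CPM. The log2 fold change was -0.61 (SE 0.418, adjusted p = 0.285 by edgeR), the fitted value farthest from 0 among the 10, but its 95% interval ran from -1.48 to 0.25. At this depth that interval holds both no change and a fall as large as that of LRP6. Small parts of the exons of LEF1 (5.20%), TCF7L2 (4.45%), TCF7 (2.08%) and APC (1.69%) are shared with other annotated genes.

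Ratios within the TCF/LEF family also overlapped between the groups. The log2 ratio of TCF7L1 to TCF7L2 differed by 0.12 (two-sided exact permutation p = 0.5) and that of LEF1 to TCF7 by 0.52 (p = 0.3 by the same exact test). Per kb of exon, TCF7L1 made up 67.5% to 69.7% of the family with the scrambled shRNA and 69.2% to 72.4% with the TAK1 shRNA, and TCF7L2 held 28.5% to 31.1% and 26.1% to 29.3%. LEF1 gave 1.24% to 1.82% and 1.39% to 1.41%, and TCF7 at most 0.204% and 0.130%. The family was thus made up of TCF7L1 and TCF7L2 mRNA in both groups.

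**Figure D3:**
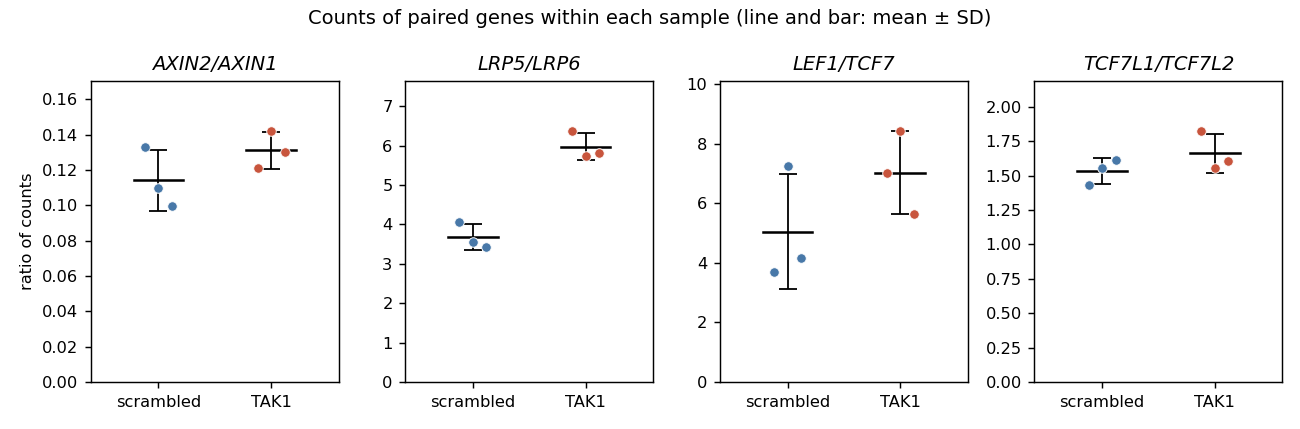
Ratio of raw counts of related genes within each scrambled shRNA (blue) and TAK1 shRNA (red) sample, with the mean and SD of 3 samples; axes start at 0. The ratio of LRP5 to LRP6 lies between 3.43 and 4.06 in scrambled and between 5.75 and 6.37 in TAK1 shRNA samples, whereas the groups overlap for the other 3 ratios. Separation for LRP5 to LRP6 follows from the opposite differences of these genes.

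On the level scale of CPM per kb of exon (GENCODE 44), the order in scrambled shRNA samples was LRP5 (45.1 ± 3.08), CTNNB1 (41.2 ± 0.901), TCF7L1 (26.3 ± 0.224), TCF7L2 (11.3 ± 0.773), APC (7.51 ± 0.205), LRP6 (7.32 ± 0.181), AXIN1 (6.37 ± 0.465), AXIN2 (1.05 ± 0.142), LEF1 (0.592 ± 0.101) and TCF7 (0.0657 ± 0.0138), each with SD and n = 3. APC and LRP6 were the only neighbours in that order whose samples overlapped. In TAK1 shRNA samples the order of levels per kb was the same for the first 5 genes, with LRP5 at 53.7 ± 3.41 and CTNNB1 at 39.5 ± 0.337. LRP6, at 5.35 ± 0.0686, came after AXIN1 (6.25 ± 0.517), which overlapped with APC (6.36 ± 0.252). This order depends on the length used. Per kb of the longest transcript, CTNNB1 (99.1) stood above LRP5 (53.9) in scrambled shRNA samples, and AXIN1 (7.58) already stood before LRP6 (7.40), with which it overlapped, while APC (9.37) overlapped with neither.

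The rest of the pathway was followed in 7 lists of genes grouped by role, with 127 genes beside the 10. Of these, 93 were tested, 21 were called higher and 13 lower, which is 36.6% against 23.1% of all tested genes, and their median log2 fold change was 0.035. The lists were chosen with earlier results of these data known, so their counts are a description.

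**Figure D4:**
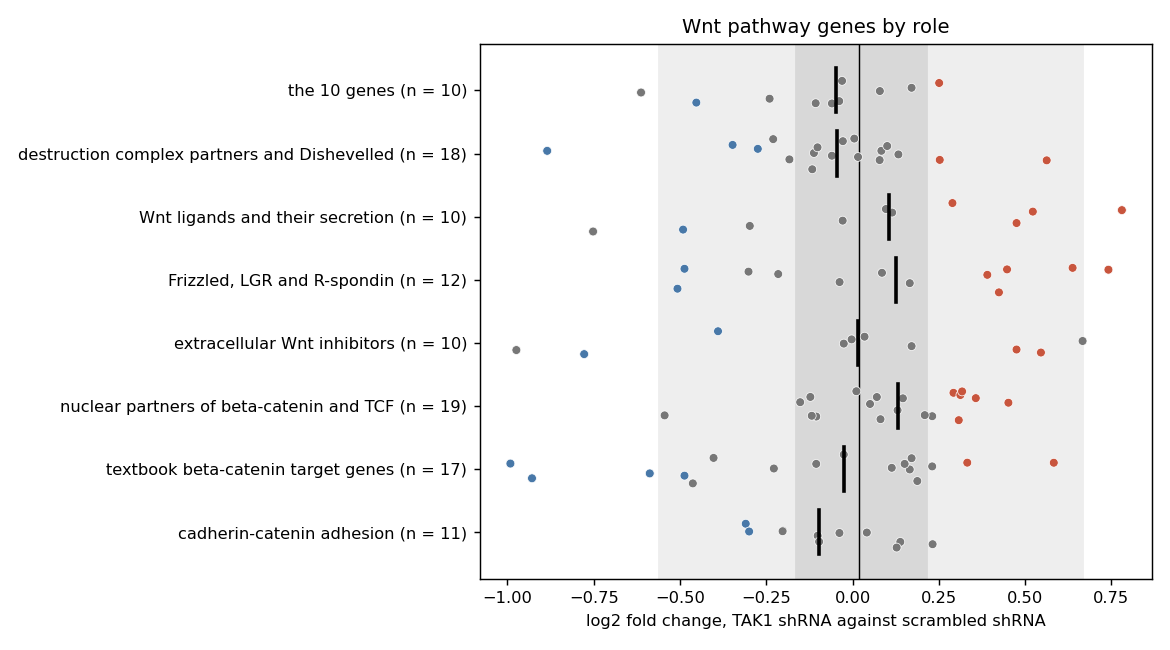
Log2 fold change, TAK1 against scrambled shRNA, of the 10 genes and of the tested genes of 7 pathway lists, with red for called higher, blue for called lower, grey for not called and a bar for the median of each list. Dark and light bands hold the central 50% and 90% of all tested genes; called genes lie on both sides in most lists, and nuclear partners were called higher only (6 of 19).

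Among partners of the destruction complex and Dishevelled proteins, 2 of 18 tested genes were called higher and 3 lower (median log2 fold change -0.04). Calls thus made up 27.8%, against 23.1% of all tested genes. PPP2CA, a catalytic subunit of the phosphatase PP2A, went down to 63.2 ± 5.92 CPM from 116.7 ± 0.606 CPM (SD, n = 3), or -0.88 on the log2 scale. PPP2R5A, a regulatory subunit of PP2A, and BTRC, the F-box protein that recognises phosphorylated β-catenin, changed by -0.35 and -0.27, and APC2, the APC relative, by 0.56. Another 3 passed the adjusted p under the fold threshold. PPP2R1A, a further PP2A subunit, was higher (0.13), and AMER1 (-0.23) and DVL2 were lower. The kinases were not called: the log2 fold change was 0.016 for GSK3A, -0.11 for GSK3B and -0.06 for CSNK1A1. The Dishevelled genes, whose proteins relay the Frizzled signal, differed among themselves. DVL1 was called higher at 0.25 (adjusted p = 0.0018 by edgeR), DVL2 stood at -0.18 (adjusted p = 0.0104), under the fold threshold, and DVL3 at -0.03. DVL1 lay at the fold threshold and lost its call in 8 of 15 alternatives, among them without scrambled shRNA sample 1 (0.23) or TAK1 shRNA sample 1 (0.18) and with the GC trend removed (0.10, adjusted p = 0.101). The call of BTRC was lost in 2 of 15, without TAK1 shRNA sample 2 (-0.24) and with scaling by library size alone (-0.23).

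Among Wnt ligands and secretion factors, 10 of 21 genes were expressed enough to be tested. Of these, 4 were called higher and 1 lower (median 0.11), which is 50% against 23.1% of all tested genes. WNT5A, a ligand often tied to signaling that does not use β-catenin, had the highest level per kb of those named and fell to 91.7 ± 3.61 CPM from 128.8 ± 1.77 CPM (SD, n = 3), or -0.49 on the log2 scale. WNT2B rose from 15.1 ± 1.35 to 26.0 ± 0.390 CPM (0.78 on the log2 scale), and PORCN, the acyltransferase that lipidates Wnt proteins, rose by 0.48 on the log2 scale. WNT5B, at 2.42 ± 0.516 against 3.50 ± 0.561 CPM, was called at 0.52 (adjusted p = 0.0466 by edgeR). That call was lost in 7 of 15 alternatives: without scrambled shRNA sample 1 (0.36) or 2 (0.59), without TAK1 shRNA sample 1 (0.41) or 3 (0.50), with DESeq2 (0.52, adjusted p = 0.0662), with limma voom (0.52, adjusted p = 0.0637) and with the GC trend removed (0.46).

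Of the Frizzled, LGR and R-spondin genes, 12 of 19 were tested, with 5 called higher and 2 lower (median 0.13). Those called were 58.3% of the tested genes of this list, against 23.1% of all tested genes. FZD6 rose from 20.3 ± 1.52 to 33.8 ± 2.84 CPM (0.74 on the log2 scale) and FZD9 by 0.64, while FZD2, higher than both per kb, fell from 146.2 ± 9.46 to 102.9 ± 7.79 CPM (-0.51). LGR5, an R-spondin receptor and itself a Wnt target, changed by -0.49. None of the 4 R-spondin genes was tested. Of the extracellular inhibitors, 10 of 18 were tested, with 2 called higher and 2 lower (median 0.016). Here the share called was 40%, against the same 23.1%. DKK2, a secreted ligand of LRP6, fell from 22.8 ± 1.02 to 13.3 ± 1.13 CPM (-0.78). Of its receptors, KREMEN1 rose by 0.48 on the log2 scale and KREMEN2 was lower (-0.39, adjusted p = 0.0313 by edgeR), and LRP4, a relative of the co-receptors, rose by 0.55. The KREMEN2 call was lost in 6 of 15 alternatives: without scrambled shRNA sample 1 (-0.26) or 2 (-0.39), without TAK1 shRNA sample 1 (-0.37) or 3 (-0.36), with limma voom (-0.37, adjusted p = 0.0503) and with scaling by library size alone (-0.34).

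Of 20 nuclear partners of β-catenin and TCF, 19 were tested, of which 6 were called higher and none lower (median 0.13). That is 31.6% of those tested, against 23.1% of all tested genes. Another 4 passed the adjusted p under the fold threshold: BCL9 (0.23) and EP300 (0.13) were higher, and CTNNBIP1 (-0.15) and CTBP2 (-0.12) lower. The list includes co-repressors and co-activators alike. TLE3, a Groucho/TLE co-repressor, rose by 0.31. Its relative TLE5 rose by 0.32, from 237.8 ± 6.71 to 296.4 ± 15.0 CPM (SD, n = 3). The family did not move as one: TLE1 was called higher (0.29), while TLE2 (-0.54) and TLE4 (-0.11) were not called. CBY1, an antagonist that binds β-catenin, rose by 0.45, and PYGO1, a co-activator, by 0.36. The PYGO1 call was lost without TAK1 shRNA sample 3 (0.26, adjusted p = 0.0601 by edgeR). NLK, a kinase that phosphorylates TCF/LEF proteins and acts downstream of TAK1 in other systems, was at 14.1 ± 1.52 and 16.3 ± 1.25 CPM (0.21, adjusted p = 0.101), which did not pass.

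Of 25 textbook β-catenin target genes, 20 were tested, and 3 of these, AXIN2, LEF1 and TCF7, are among the 10 genes and were not called. Of the 17 others, 2 were called higher and 4 lower (median -0.03). Over all 20 tested, 30% were called, against 23.1% of all tested genes. CCND1, the cyclin that drives entry into S phase, fell from 210.6 ± 4.81 to 110.7 ± 5.58 CPM (-0.93). MYC, outside the naming rule and named after its values were seen, rose from 226.6 ± 4.59 to 285.3 ± 6.07 CPM (0.33). CCND1 and MYC, both abundant, thus went in opposite directions. Other abundant targets, BIRC5 (-0.11), CD44 (0.11) and SOX4 (0.15), were not called. ID2, an inhibitor of bHLH factors, measured 2.98 ± 0.687 against 1.49 ± 0.506 CPM (-0.99), FOSL1, an AP-1 subunit, changed by -0.59, and TNFRSF19, a receptor of the TNF family, by 0.58. LGR5, given above, was the fourth gene called lower. Most of these genes also answer to other pathways.

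In the cadherin-catenin adhesion list, which holds the membrane partners of β-catenin, 11 of 15 genes were tested. None was called higher and 2 were called lower (median -0.10), which is 18.2%, against 23.1% of all tested genes. Those called were CTNNA1, α-catenin, from 272.8 ± 3.99 to 220.1 ± 10.9 CPM (-0.31), and VCL, vinculin, from 859.4 ± 16.1 to 698.2 ± 16.3 CPM (-0.30). Another 4 passed the adjusted p under the fold threshold: CDH15 (0.23) and PKP4 (0.13) were higher, and CDH2 (-0.20) and CTNND1 (-0.20) lower. Exons of other annotated genes overlapped 49.3% of the exonic bases of CSNK1A1, 44.8% of CBY1 and 39.1% of CTNND1. The overlap was 34.2% for CTBP2, 27.7% for PPP2CA and 21.5% for WNT2B. Counts of these genes, like those of AXIN2, are therefore less certain.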

How the data were processed

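The authors sequenced poly(A)-enriched mRNA from 3 RD samples with scrambled and 3 with TAK1 shRNA. They called bases with CASAVA, removed reads with adaptors or low quality and aligned to GRCh38 with STAR. The authors deposited raw counts per gene symbol without normalization. Counter, annotation release, strand use and handling of reads with several matches are not given in the sources used here. Samples were grouped by their labels.

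Counts were analysed with edgeR 4.0.16 in R 4.3.3: default expression filter (15935 of 58735 rows kept), trimmed mean of M-values, quasi-likelihood test and Benjamini-Hochberg adjustment. Each standard error was taken as the log2 fold change over the root of its F statistic. Intervals are at 95%. The tested genes held at least 99.9% of counts, and the common biological coefficient of variation was 5.67%. Replicates differed by more than counting error (chi-square per degree of freedom 2.88 to 8.60). Count ratios within libraries were compared by two-sided exact permutation tests, 4 in all. Lengths and overlaps came from GENCODE 44. AES in the table was read as TLE5.

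The 10 genes and the lists were chosen with earlier results of these data known. Named beside them were 7 core partners, at most 4 called genes per list by size of change (averaging 1 CPM or more), and 3 genes most like CTNNB1 and AXIN2. Alternatives were DESeq2 1.42.0, limma 3.58.1 (voom), other scalings, filters and fold thresholds, a replicate block, leaving out each sample and, added after the data were seen, an offset for the GC trend of each library. GC content was known for 87.6% of tested genes. The fits were checked on simulated counts.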

Additional observations from a re-analysis of the deposited data

How the results depend on the processing

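Over the alternatives run, APC, LRP5 and LRP6 were those of the 10 genes past the adjusted p each time, and MAP3K7 lay between -1.36 and -1.22 on the log2 scale. LRP5 at the fold threshold decides how many of the 10 were called higher, which was 0 with DESeq2 or RLE scaling (LRP5 at 0.246 in both), without the filter on low counts (0.244) and with the GC offset, and ranged from 0 to 1 when 1 sample was left out. Those called lower numbered 2 without a fold threshold (APC added) and 1 to 2 when 1 sample was left out. A fold threshold of 0.5 left 0 of the 10 called in either direction, 735 genes higher and 680 lower, and 7 other pathway genes higher and 6 lower, and no fold threshold gave 2569 genes higher and 2734 lower, and 28 other pathway genes higher and 19 lower.

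Scaling by library size alone moved the median log2 fold change of all genes from 0.018 to 0.066 and the share of calls that were higher from 51.0% to 62.9%. Signs turned only for values that did not pass the test in either setting. AXIN1 turned to 0.017 (library size alone), 0.030 (without scrambled shRNA sample 2) and 0.026 (without TAK1 shRNA sample 2), with a lowest value of -0.091 when 1 sample was left out, LEF1 to 0.013 (without scrambled shRNA sample 2; lowest -0.23), TCF7L2 to 0.010 (library size alone) and 0.018 (without scrambled shRNA sample 1; lowest -0.075), and TCF7L1 to -0.015 (GC offset). Of the core partners, DVL3 turned to 0.020 (library size alone), CSNK1A1 to 0.012 (GC offset), and GSK3A to -0.037 (without scrambled shRNA sample 3), -0.044 (without TAK1 shRNA sample 1; highest 0.052 with 1 sample left out) and -0.0042 (GC offset). DVL1 was also under the fold threshold with DESeq2 (0.2475), limma voom (0.247), RLE scaling (0.2472) and no filter on low counts (0.2455). DVL2 passed it with the GC offset (-0.27), and NLK passed the test with library size alone (0.26) and the GC offset (0.27). The cause of these shifts was not tested.

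The sample numbers were not taken as pairs, because the study's methods name no block. Samples of the same number in both groups deviated together weakly (correlations 0.037, 0.0364 and 0.0165), which does not settle whether they are pairs. For samples of unlike number the correlations ran from -0.0524 to 0.019. With a replicate block, 1942 genes were higher and 1848 lower, and LRP5 (0.25) and LRP6 (-0.45) kept their calls, while DVL1 (0.2495) came under the fold threshold. Of the 6 samples, 5 correlated best with their own number. Depth limits TCF7, LEF1 and AXIN2 most.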
